A study of Mus musculus with 13 samples.

Results

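The TREM family comprises receptors with a single immunoglobulin-like domain, carried mainly by myeloid cells such as monocytes, macrophages, neutrophils and dendritic cells. Trem1, Trem2 and Trem3 have short tails and signal through the adaptor DAP12 (Tyrobp) and the kinase Syk. Of the TREM-like receptors, Treml1 is best known from platelet granules, Treml2 from B cells and phagocytes, and Treml4 from mouse monocytes, macrophages and splenic dendritic cells, where it binds dying cells. Here the transcripts of the family were followed in cells that had been sorted for CD31, the product of Pecam1, from ovarian tumors grown in mice. All 6 family members named for study (Trem1, Trem2, Trem3, Treml1, Treml2 and Treml4) had a probe set on the array, out of 18193 genes that a probe set names alone. Together they had 11 of the 45101 probe sets, and 10 of the 11 passed the filter on dim values. The family was chosen by gene name, with Treml4 chosen on its values on these arrays, which had been seen to be lower in both treated groups. Those Treml4 differences are therefore given as a description, with no test.

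The data were 13 Affymetrix Mouse Genome 430 2.0 arrays in 3 groups. Resistant arrays (n = 4) came from tumors that grew again under B20, a monoclonal antibody that binds the vessel growth factor VEGF-A. Sensitive arrays (n = 4) came from tumors that still responded to B20, and control arrays (n = 5) from mice given control IgG. All groups shared the host and the tumor, namely SKOV3ip1, a human ovarian cancer line carrying luciferase, injected into the peritoneal cavity of female athymic nude mice, which lack thymus-derived T cells and keep B cells and myeloid cells. Mice were placed in the sensitive or resistant group by bioluminescence, so group and time under treatment cannot be told apart. Platelets and red cells were removed on Percoll before the sort, and neither the age of the animals nor the number of mice behind an array is stated. The labels call the arrays biological replicates without naming animals, so the p-values below measure the spread between these arrays.

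Values are log2 intensities after quantile normalization of the deposited values, with a floor at 2.01, the 30th percentile of all values. A level of 1 probe set was not set against that of another. The sorted cells were not uniformly endothelial by their own markers. Pecam1 was at 6.56 on control array 4 and again on control array 5, and ranged over 2.32 to 3.41 elsewhere (11 arrays). The median of 23 macrophage and monocyte genes was 4.24 to 4.60 on sensitive arrays 1, 2 and 3, and 7.30 to 9.59 on the remaining 10, sensitive array 4 included. In such mixed material, fewer cells of a type and less RNA per cell cannot be told apart.

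All 6 genes lie in 1 cluster on mouse chromosome 17, in the order Trem1, Trem3, Treml4, Treml2, Trem2 and Treml1, with B430306N03Rik (Treml6), which was not among the members, between Treml2 and Trem2. Promoter sequence was at hand for 4 of the 6 genes (RefSeq, build GRCm38.p6, plus strand), and the 250 bases before the start are shown for Treml4, the member set apart by its values, and for Trem1 and Trem2 to compare. Capitals mark GAGGAA or its reverse complement TTCCTC, the core of sites for PU.1, the transcription factor of myeloid cells. The windows are chr17:48264045-48264294 (Treml4), chr17:48232489-48232738 (Trem1) and chr17:48346151-48346400 (Trem2).
Treml4: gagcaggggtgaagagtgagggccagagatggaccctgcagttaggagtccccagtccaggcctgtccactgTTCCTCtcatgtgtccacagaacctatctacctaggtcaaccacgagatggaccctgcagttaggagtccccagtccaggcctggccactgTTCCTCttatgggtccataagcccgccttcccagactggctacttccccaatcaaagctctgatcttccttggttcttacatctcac
Trem1: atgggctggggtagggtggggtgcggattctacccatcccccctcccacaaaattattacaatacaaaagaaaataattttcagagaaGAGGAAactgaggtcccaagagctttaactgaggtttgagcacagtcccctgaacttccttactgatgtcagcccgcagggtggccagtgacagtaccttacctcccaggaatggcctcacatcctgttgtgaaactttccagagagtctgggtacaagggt
Trem2: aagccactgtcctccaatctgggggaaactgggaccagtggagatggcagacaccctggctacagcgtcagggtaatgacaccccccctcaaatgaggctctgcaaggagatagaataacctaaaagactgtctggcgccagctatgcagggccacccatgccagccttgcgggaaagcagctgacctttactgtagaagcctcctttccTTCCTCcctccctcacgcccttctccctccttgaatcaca
Treml4 held 2 matches, both on the minus strand, Trem1 held 1 on the plus strand, Trem2 held 1 on the minus strand, and the Treml1 window held 0. Of all 32851 promoters of this length, 23.3% held at least 1 match and 3.54% held 2 or more. Both Treml4 matches follow copies of a 40-base direct repeat, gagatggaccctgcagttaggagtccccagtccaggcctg, which begin 225 and 134 bases before the start. A direct repeat at least this long was found in 157 of the 32851 promoters (0.478%). TGANTCA, the AP-1 site, was matched 1 time in the Trem2 window and in none of the other 3 (6.75% of all promoters), and TTGCNNCAA, the core of C/EBP sites, in none of the 4 (1.74% of all promoters). Both strands were searched for each motif. A match is a description of the letters and not a bound site.

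Treml4 was the 1 member with no overlap between either treated group and control. Its probe set (1460014_at) read 3.76, 4.35, 4.35 and 2.91 on resistant arrays 1 to 4. On sensitive arrays 1 to 4 it read 2.93, 3.06, 4.32 and 4.84. On control arrays 1 to 5 it read 5.45, 7.12, 6.71, 5.82 and 6.20. Every treated array lay below every control array, and the ranges of the resistant and sensitive arrays overlapped. Treml4 averaged 3.84 ± 0.68 on resistant arrays, 3.79 ± 0.94 on sensitive arrays and 6.26 ± 0.67 on control arrays (SD, n = 4, 4 and 5). These means put it 5.35-fold lower in resistant cells and 5.56-fold lower in sensitive cells, each against control (log2 differences of -2.42 and -2.47). Over all 27388 probe sets tested, 0.234% lay below control in both treated groups without overlap, 1.21% in resistant and 1.5% in sensitive cells, but nothing is read from this, since that pattern chose the gene.

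**Figure D1:**
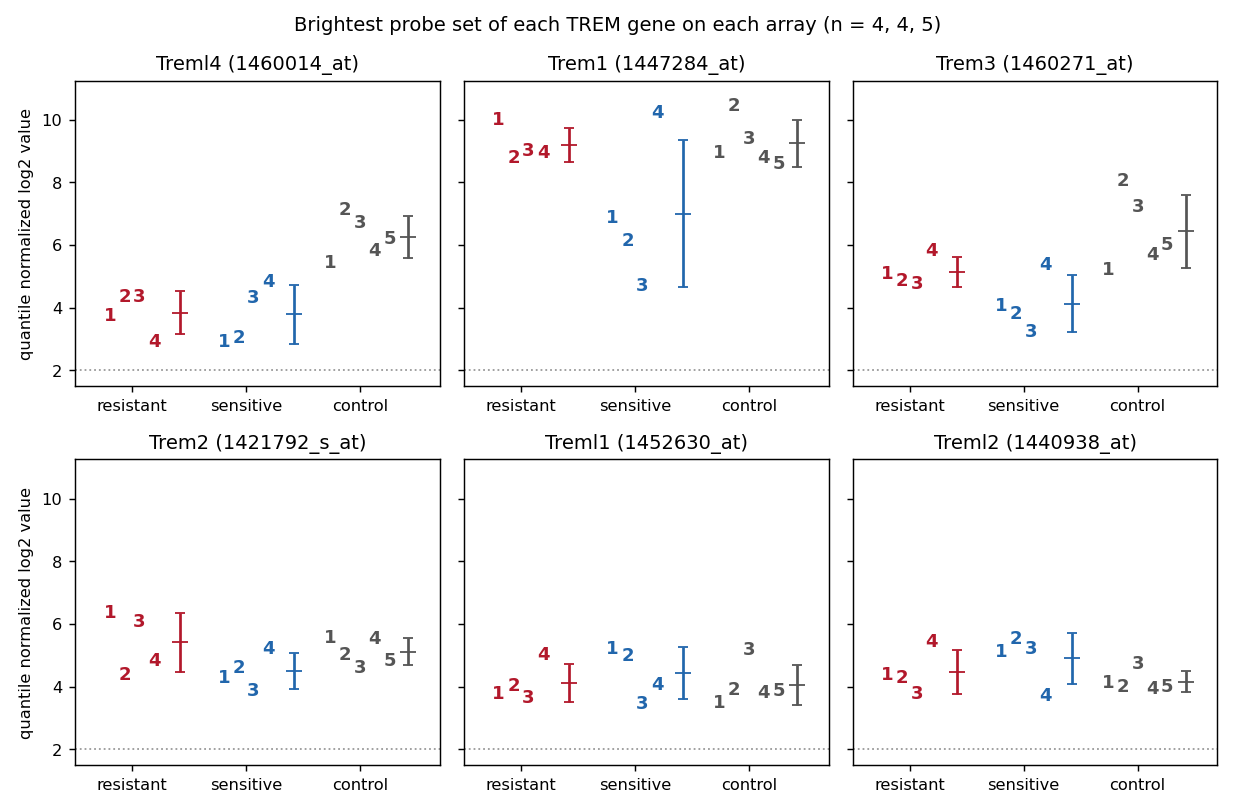
Quantile normalized log2 value (y axis) of the probe set with the highest mean for each TREM gene, in 1 panel per gene, on the resistant (n = 4), sensitive (n = 4) and control (n = 5) arrays. Numerals are array numbers, bars are mean ± SD and the dotted line is the floor of 2.01. Treml4 lies at or below 4.84 on all treated arrays and at or above 5.45 on all control arrays, and Trem1 is low on sensitive arrays 1, 2 and 3 alone.

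The difference of Treml4 between the treated groups was not used to choose it and was tested. Resistant and sensitive means differed by 0.06 on the log2 scale (SE 0.51, 95% interval -1.03 to 1.15, limma adjusted p = 0.980). An exact two-sided permutation test gave p = 0.886, where 0.0286 is the smallest that 4 against 4 arrays allow. The interval leaves room for a difference of about 1 log2 unit either way. On the deposited scale the sign turned, to -0.063.

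Treml4 is given beside the macrophage genes as a description of the same arrays. Sensitive array 4 had the highest macrophage median (9.59) and a Treml4 value of 4.84, below all 5 controls. Resistant arrays 1 and 4 had macrophage medians of 9.37 and 9.04 beside Treml4 values of 3.76 and 2.91. Control arrays 2 and 3, with macrophage medians of 7.99 and 7.53, had the highest Treml4 values, 7.12 and 6.71. Sensitive arrays 1, 2 and 3, with the lowest macrophage medians (4.42, 4.24 and 4.60), had Treml4 values of 2.93, 3.06 and 4.32. The 2 endothelial-rich control arrays, with Treml4 at 5.82 and 6.20, lay within the range of the other controls, and without them the difference was -2.58 in resistant and -2.64 in sensitive cells. Sensitive array 4 taken alone lay 1.42 below the control mean. The part of macrophages in the Treml4 values was not tested.

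**Figure D2:**
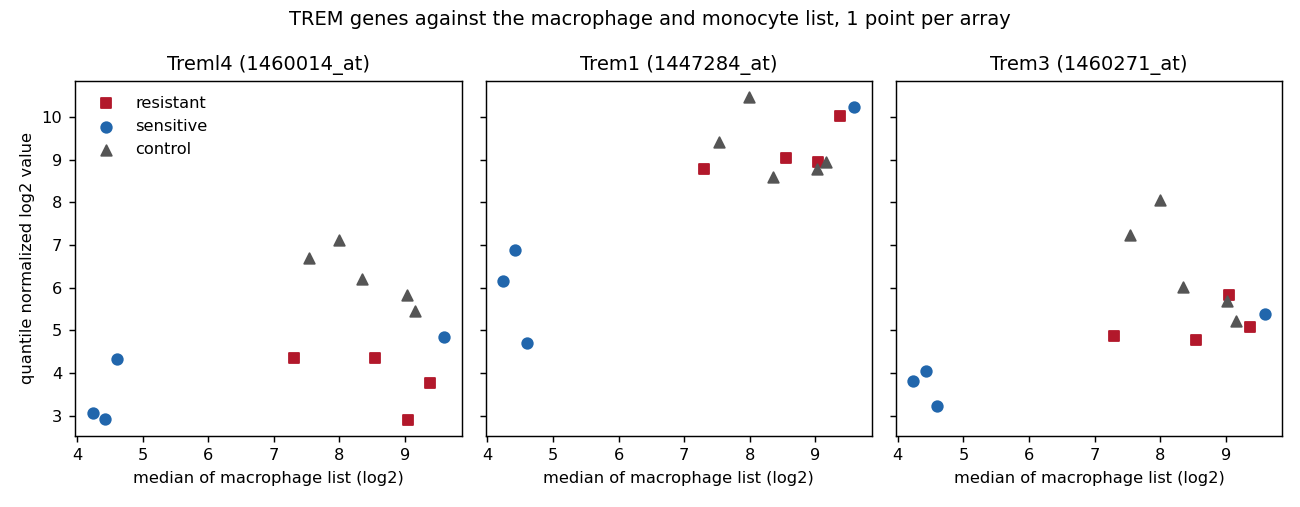
Quantile normalized log2 value (y axis) of Treml4, Trem1 and Trem3 against the median of 23 macrophage and monocyte genes (x axis, log2), 1 point per array, with resistant, sensitive and control arrays by shape and color. Sensitive arrays 1, 2 and 3 form the left group, between 4.24 and 4.60 on the x axis, where Trem1 and Trem3 are low, whereas Treml4 is also low on the 5 treated arrays at the right.

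Cell types in which Treml4 is known were examined through marker lists. Of 10 non-classical monocyte genes tested, 1 was lower in resistant than control cells at an unadjusted p under 0.05, against a background of 1.52% lower over 15370 genes. That gene was Adgre4, an adhesion receptor of monocytes and macrophages. It read 3.82, 3.49, 3.31 and 2.01 on resistant arrays 1 to 4, and 2.01, 2.01, 4.23 and 3.63 on sensitive arrays 1 to 4. On control arrays 1 to 5 it read 5.46, 6.78, 5.94, 2.97 and 3.80, so that control arrays 4 and 5 fell among the treated ones. Adgre4 differed by -1.83 in resistant and by -2.02 in sensitive cells, each against control, and neither passed after adjustment in limma (adjusted p = 1 and 0.367). Of the same list, 3 genes were lower and 1 higher in sensitive than control cells at an unadjusted p under 0.05. The background was 6.58% lower and 5.28% higher. Fcgr4, an IgG receptor, stood at -3.10, Cd36, a scavenger receptor, at -2.87, and Nr4a1, the higher gene, at 1.67. In each treated group 4 of the 10 genes lay above control and 6 below. The medians of the list were -0.21 in resistant and -0.82 in sensitive cells. Of 10 genes of cross-presenting dendritic cells, 0 were lower in either treated group at an unadjusted p under 0.05. By this measure 1 was higher in sensitive than control cells, Cadm1 at 1.42 (background 5.28%). The median differences of the list were -0.04 in resistant and 0.05 in sensitive cells. Of 5 genes of splenic red pulp macrophages, 0 differed from control in either group at that level.

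Trem1, which amplifies the inflammatory response of neutrophils and monocytes, was measured by 2 probe sets. Probe set 1447284_at read 10.01, 8.79, 9.03 and 8.94 on resistant arrays 1 to 4. On sensitive arrays 1 to 4 it read 6.88, 6.16, 4.71 and 10.24. On control arrays 1 to 5 it read 8.95, 10.46, 9.41, 8.78 and 8.60. Sensitive arrays 1, 2 and 3 lay below all the other arrays, whereas sensitive array 4 was the second highest of the 13. Its mean was 9.19 ± 0.56 in resistant, 7.0 ± 2.34 in sensitive and 9.24 ± 0.75 in control cells (SD, n = 4, 4 and 5).

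The other Trem1 probe set had the same arrangement of sensitive arrays at another level, but differed for resistant against control arrays. Probe set 1460282_at read 5.75, 3.97, 4.58 and 5.13 on resistant arrays, 2.30, 2.40, 2.34 and 5.61 on sensitive arrays, and 5.50, 6.18, 5.49, 5.86 and 5.49 on control arrays. Again sensitive arrays 1, 2 and 3 were the lowest of all and sensitive array 4 lay among the controls. Resistant arrays 2, 3 and 4 lay below every control array here, whereas by 1447284_at they lay within the control range. Over the 13 arrays the probe sets correlated at r = 0.90.

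Between resistant and sensitive cells, 2 of the 10 tested TREM probe sets were higher at an unadjusted p under 0.05, both of Trem1, where 4.33% of all probe sets were higher and 2.49% lower by this measure. In limma 0 of the 10 passed an adjusted p under 0.05, as did 0% of all 27388 probe sets (1869 had an unadjusted p under 0.05), and the methods' t-test likewise gave 0 after adjustment (923 unadjusted). Trem1 was 4.58-fold higher in resistant than sensitive cells by 1447284_at (log2 difference 2.20, SE 0.86, limma adjusted p = 0.663). By 1460282_at it was 3.24-fold higher (1.69, SE 0.64, limma adjusted p = 0.651). Exact permutation tests gave p = 0.143 and 0.114.

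Between sensitive and control cells, 3 of the 9 probe sets tested were lower at an unadjusted p under 0.05, against 6.13% of all probe sets lower and 4.81% higher, namely both of Trem1 and that of Trem3. Here too 0 of 9 passed after adjustment in limma, with 0% of all probe sets (2997 unadjusted), and 0 by the methods' t-test (2218 unadjusted). The Trem1 differences were -2.24 (SE 0.82, limma adjusted p = 0.367) and -2.54 (SE 0.61, limma adjusted p = 0.224), with exact permutation p = 0.0794 and 0.0635, where 0.0159 is the smallest that 4 against 5 arrays allow. Between resistant and control cells they were -0.05 (95% interval -1.80 to 1.7) and -0.85 (SE 0.61), with a limma adjusted p of 1 for each.

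Array 4 of the sensitive group decided these calls. It was singled out by outcome, as the array whose removal gave the most calls in both comparisons with sensitive cells. The adjusted p-values without it are therefore a description and no independent test. Without it, 2 of 10 TREM probe sets passed an adjusted p under 0.05 in limma as higher in resistant than sensitive cells, against 1.96% of all probe sets, both again of Trem1 (log2 differences 3.28 and 2.51, adjusted p = 0.00576 and 0.00382). Likewise 3 of 9 then passed as lower in sensitive than control cells, against 2.91% of all probe sets (Trem1 at -3.33 and -3.36 with limma adjusted p = 0.0033 and 0.000338, Trem3 at -2.74 with 0.0173). With array 4 as the only sensitive array, Trem1 turned round, to -1.05 and -0.75 in resistant against sensitive cells. On that array the gap between 3' and 5' control probe sets was 5.95 log2 units, beside 2.23 to 3.82 on the other 12 arrays, and its part in these values was not tested. Macrophage genes had the same arrangement over the arrays. Of 23 in the list, 19 were higher in resistant than sensitive cells at an unadjusted p under 0.05 (background 4.51% of genes) and 18 were lower in sensitive than control cells (background 6.58%), with medians of 2.53 and -2.32 and sensitive arrays 1, 2 and 3 the lowest. Their part in the Trem1 values was not tested.

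**Figure D3:**
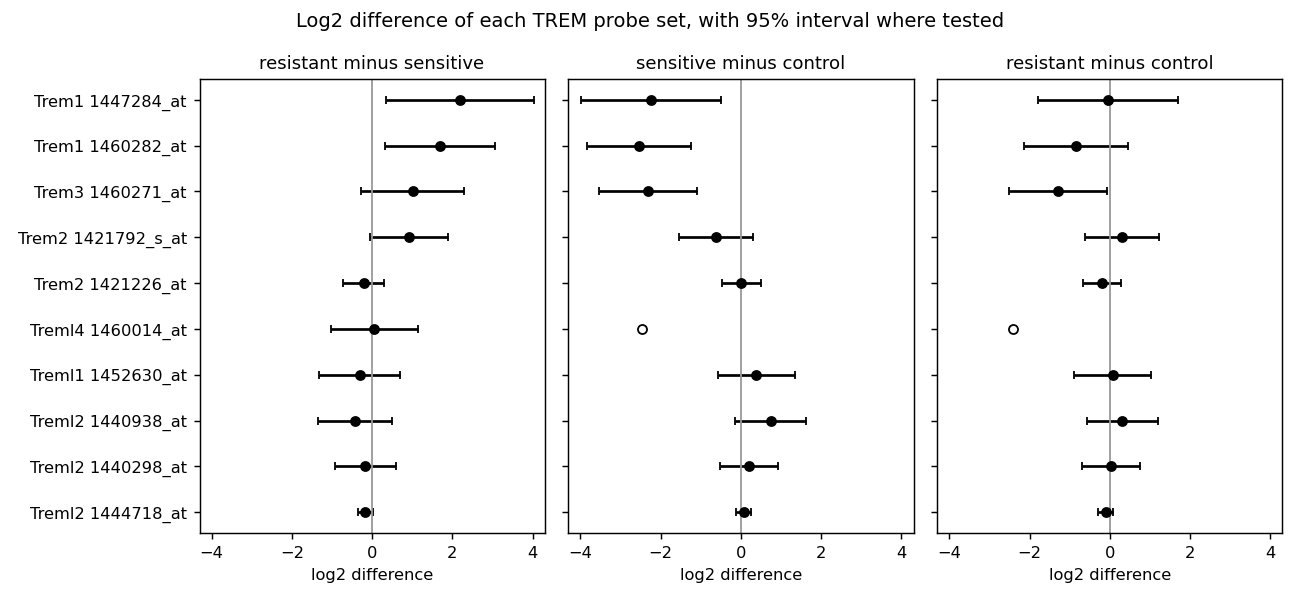
Log2 difference (x axis) of each of the 10 tested TREM probe sets in 3 panels, resistant minus sensitive, sensitive minus control and resistant minus control, with bars for the 95% interval from limma, not adjusted for multiple tests. Open points, without bars, are the Treml4 differences used to choose the gene; both Trem1 probe sets and Trem3 lie below 0 in the middle panel, with intervals that do not reach 0.

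Trem3, a DAP12-coupled receptor of mouse granulocytes and macrophages and the nearest neighbor of Treml4 on the Trem1 side, had lower means than control in both treated groups as well. Probe set 1460271_at read 5.08, 4.86, 4.78 and 5.84 on resistant arrays. It read 4.06, 3.81, 3.23 and 5.38 on sensitive arrays and 5.21, 8.05, 7.22, 5.69 and 6.01 on control arrays. Sensitive arrays 1, 2 and 3 were the lowest, and the ranges of resistant and control arrays overlapped between 5.21 and 5.84. The mean was 5.14 ± 0.48 in resistant, 4.12 ± 0.91 in sensitive and 6.44 ± 1.17 in control cells (SD, n = 4, 4 and 5).

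Trem3 was 4.98-fold lower in sensitive than control cells (log2 difference -2.32, SE 0.57, limma adjusted p = 0.226, exact permutation p = 0.0317). Between resistant and control cells Trem3 was the only 1 of 9 tested TREM probe sets with an unadjusted p under 0.05, where 1.43% of all probe sets were lower and 1.06% higher by this measure. That difference was -1.30 (SE 0.57, 95% interval -2.51 to -0.079, limma adjusted p = 1, exact permutation p = 0.0635), or 2.46-fold. In resistant against sensitive cells it was 1.02 (SE 0.60, limma adjusted p = 0.793). In limma 0 of 9 probe sets passed between resistant and control cells, as did 0% of all probe sets (682 unadjusted, and 1746 by the methods' t-test, 0 of them after adjustment).

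Neutrophil genes were counted beside Trem3. Of 12 tested, 4 were lower in resistant than control cells at an unadjusted p under 0.05 (background 1.52%). In sensitive against control cells 4 were lower by this measure (background 6.58%), and 0 passed after adjustment in limma in either comparison. In each treated group 4 of the 12 genes had means above control and 8 below. The medians of the list were -0.49 in resistant and -0.24 in sensitive cells. S100a8, a calcium-binding protein abundant in neutrophils, averaged 6.95 ± 0.78 in resistant, 5.56 ± 2.01 in sensitive and 8.53 ± 0.61 in control cells (SD, n = 4, 4 and 5). Its partner S100a9 averaged 4.12 ± 0.49, 4.01 ± 1.42 and 5.70 ± 0.82 in the same groups. Mmp8, the neutrophil collagenase, lay close to the floor throughout (means of 2.17, 2.26 and 2.83 in resistant, sensitive and control cells). The part of neutrophils in the Trem3 and Treml4 values was not tested.

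Trem2, the lipid and apolipoprotein E sensor of tissue macrophages, was measured by 2 probe sets that did not move together (r = 0.01 over 13 arrays). Probe set 1421792_s_at read 6.36, 4.39, 6.07 and 4.85 on resistant arrays, 4.28, 4.62, 3.87 and 5.21 on sensitive arrays, and 5.57, 5.03, 4.62, 5.54 and 4.82 on control arrays. The highest values were those of resistant arrays 1 and 3, and the groups overlapped. Its difference was 0.92 in resistant against sensitive cells (SE 0.46, 95% interval -0.055 to 1.90, limma adjusted p = 0.744) and -0.62 in sensitive against control cells (SE 0.43, limma adjusted p = 0.565). Probe set 1421226_at stayed between 3.02 and 3.93 on all arrays, and its group means, 3.17, 3.38 and 3.37 in resistant, sensitive and control cells, differed by less than the spread between arrays.

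Genes that accompany Trem2 in lipid-laden macrophages were counted beside it. Of 16 such genes, 7 were higher in resistant than sensitive cells at an unadjusted p under 0.05 (background 4.51%) and 6 were lower in sensitive than control cells (background 6.58%), with medians of 0.80 and -0.68. In resistant against control cells 0 differed by this measure, and the median was 0.11. The lysosomal lipase Lipa and the protease Ctsd were among them, at 1.97 and 2.33 in resistant against sensitive cells. Apoe, a ligand of Trem2, read 12.15, 10.69, 11.94 and 10.44 on resistant arrays, 8.38, 7.30, 7.91 and 12.18 on sensitive arrays, and 12.15, 10.84, 10.43, 11.81 and 11.81 on control arrays. It thus had the arrangement of Trem1, with sensitive arrays 1, 2 and 3 below all others (2.36 in resistant against sensitive cells, limma adjusted p = 0.632).

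Treml1, the platelet receptor, varied more within groups than between their means. Probe set 1452630_at read 3.79, 4.03, 3.66 and 5.01 on resistant arrays, 5.22, 4.99, 3.45 and 4.05 on sensitive arrays, and 3.49, 3.91, 5.17, 3.81 and 3.87 on control arrays. It was between 4.99 and 5.22 on 4 arrays (resistant 4, sensitive 1 and 2, control 3) and between 3.45 and 4.05 on the other 9. These 4 arrays had the lowest trimmed means of the deposited values, 19.4 to 24.7 on the linear scale, beside 27.5 to 33.5 on the other 9. The median of the platelet list was 3.67 to 3.84 on the 4 arrays and 3.18 to 3.52 on the others, and the part of either in the Treml1 values was not tested. The differences between groups were -0.30 (95% interval -1.31 to 0.70), 0.38 and 0.07 for resistant against sensitive, sensitive against control and resistant against control cells, with limma adjusted p of 0.885, 0.723 and 1.

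Of the platelet genes, 2 of 11 were higher in resistant than sensitive cells at an unadjusted p under 0.05, Pf4 and Rgs18 (background 4.51%). In sensitive against control cells 2 were lower, Pf4 and Clec1b, a platelet receptor for podoplanin (-2.38 and -0.56, background 6.58%). In resistant against control cells 1 was higher, Rgs18 at 0.67 (background 0.956%), and 1 lower, Clec1b at -0.44 (background 1.52%). Pf4, a platelet chemokine that macrophages also make, averaged 8.76 in resistant, 6.48 in sensitive and 8.85 in control cells, whereas Ppbp, a chemokine of platelet granules, lay between 2.01 and 2.42 on all arrays.

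Treml2, a receptor of B cells and phagocytes, had 4 probe sets, of which 1 was well away from the floor. Probe set 1440938_at read 4.38, 4.29, 3.78 and 5.44 on resistant arrays, 5.13, 5.54, 5.21 and 3.72 on sensitive arrays, and 4.15, 3.99, 4.74, 3.94 and 4.0 on control arrays. Sensitive arrays 1, 2 and 3 and resistant array 4 were the highest, and sensitive array 4 the lowest. On the 4 arrays of lowest trimmed mean (resistant 4, sensitive 1 and 2, control 3) it read 4.74 to 5.54, and on the other 9 it read 3.72 to 5.21. The part of array scale in these values was not tested. The differences were -0.43 (SE 0.43) in resistant against sensitive cells and 0.74 (SE 0.41) in sensitive against control cells, with limma adjusted p of 0.835 and 0.513. In resistant against control cells the difference was 0.31 (SE 0.41, limma adjusted p = 1).

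The other Treml2 probe sets were dim. Probe set 1440298_at lay between 2.01 and 3.07 on 12 arrays and at 3.94 on sensitive array 3, and correlated with 1440938_at at r = 0.04. Sensitive array 3 was also the array with the highest median of 11 B cell genes, 6.74 beside 2.97 to 4.66 on the other 12, and the part of these in the Treml2 value was not tested. Of those 11 genes 0 differed in any of the 3 comparisons at an unadjusted p under 0.05, with medians of -0.56 in resistant against sensitive cells and 0.73 in sensitive against control cells. Probe set 1444718_at was above the floor on 6 of 13 arrays, none of them resistant, and never over 2.34, and correlated with 1440938_at at r = 0.55. Probe set 1419837_at was above it on sensitive array 3 alone, at 2.08, and was not tested.

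**Figure D4:**
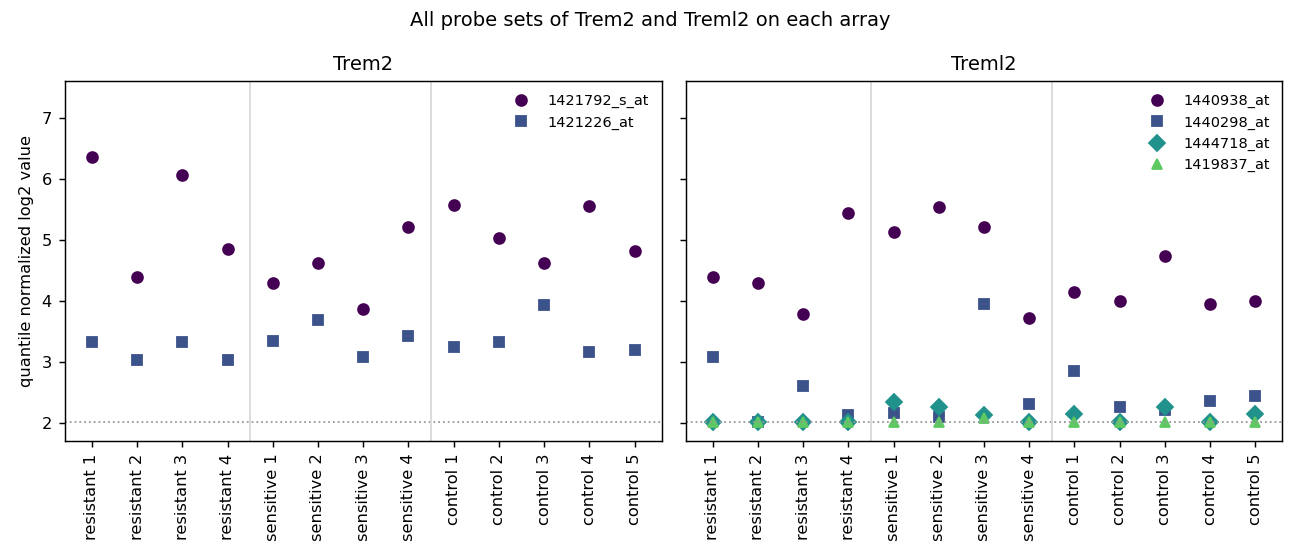
Quantile normalized log2 value (y axis) of every probe set of Trem2 (left, 2 probe sets) and Treml2 (right, 4 probe sets) on each of the 13 arrays (x axis), with the floor of 2.01 dotted. Probe set 1421226_at of Trem2 stays between 3.02 and 3.93 throughout while 1421792_s_at varies, and 1440298_at of Treml2 stands out at 3.94 on sensitive array 3.

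The adaptor of the DAP12-coupled members had the arrangement of Trem1. Tyrobp, which encodes DAP12, read 10.56, 9.26, 10.09 and 10.59 on resistant arrays, 6.13, 7.21, 7.96 and 11.0 on sensitive arrays, and 10.49, 10.64, 10.38, 10.38 and 9.94 on control arrays. Sensitive arrays 1, 2 and 3 were again the lowest and sensitive array 4 the highest. Its differences were 2.05 in resistant against sensitive cells (SE 0.75, limma adjusted p = 0.645), -2.29 in sensitive against control cells (SE 0.71, limma adjusted p = 0.31) and -0.24 in resistant against control cells.

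The alternative adaptor Hcst (DAP10) differed by -0.18, 0.29 and 0.11 in the 3 comparisons in the same order, and the kinase Syk by 1.32, -1.41 and -0.10 (limma adjusted p = 0.784, 0.482 and 1). Of 23 adaptor and signalling genes, 4 were higher in resistant than sensitive cells at an unadjusted p under 0.05 (background 4.51%), namely Lcp2, Bcl10, Tyrobp and Malt1. In sensitive against control cells 6 were lower (background 6.58%), with the smallest p for Malt1, a protease downstream of CARD9 (-2.54), then for the kinase Fgr (-1.81) and Tyrobp. In resistant against control cells 0 of 23 differed by this measure and the median was 0.00.

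Related receptors of other families and the ligands were read in the same way. The background was 6.58% of genes lower in sensitive than control cells and 4.51% higher in resistant than sensitive cells. Of 8 tested genes listed with other DAP12-coupled receptors, 2 were lower in sensitive than control cells, Pilrb1 at -1.56 and the CSF1 receptor Csf1r at -1.87. In resistant against sensitive cells 1 was higher, Csf1r at 2.22. Csf1r was counted in the macrophage list too. Of 5 members of the CD300 family tested, 1 was lower in sensitive than control cells, the inhibitory receptor Cd300a, at -2.31, and the same gene was higher in resistant than sensitive cells, at 1.57. Of 9 genes for ligands and shedding enzymes, 1 was higher in resistant than sensitive cells, Apoe, and 2 were lower in sensitive than control cells, Apoe at -2.47 and Pglyrp1, a ligand of Trem1, at -0.44 near the floor (means of 2.44, 2.21 and 2.65 in resistant, sensitive and control cells). The sheddase Adam17 stood at -1.14 and did not pass (limma adjusted p = 0.464). All these counts are at an unadjusted p under 0.05, 0 passed after adjustment in limma, and 0 of the 3 lists had a gene that differed between resistant and control cells.

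Among themselves the members fell into few shared courses. Over the 13 arrays Trem1 (1447284_at) correlated with Trem3 at r = 0.77 and with Treml4 at r = 0.47, and Trem3 correlated with Treml4 at r = 0.76. Within groups, after each group's mean was removed, the last of these was 0.46. Treml2 (1440938_at) ran against Trem1 at r = -0.68. These correlations describe 13 arrays that share a platform and, in part, the same mix of cells.

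Genes whose course over the 13 arrays was most like that of each member were found by Pearson's r. For Treml4 they were Tmtc2 (r = 0.92), Anapc16, Tmem87a and Pla1a (r = 0.90 each) and Ccdc28b (r = 0.89), and within groups these fell to between 0.49 for Pla1a and 0.89 for Ccdc28b. For Trem1 they were Mcl1, an antiapoptotic BCL2 relative, Eps8, Emilin2, Samd8 and Dapk1, at r = 0.96 to 0.97. For Trem3 they were the proteasome subunit Psma6, Kazald1, the SNARE protein Vamp8, Resf1 and Card19 (r = 0.89 to 0.92), and for Trem2 (1421792_s_at) Camk1, Cryl1, Tmem141, Galnt7 and Slco2b1 (r = 0.90 to 0.94). For Treml1 they were Mgll, Ccdc74a, Aqp11, Lce1h and Cyp2c38 (r = 0.97 to 0.98), and for Treml2 (1440938_at) Tube1, Tmem42, Adal, Cyb561a3 and Gm14204 (r = 0.93 to 0.98). Treml1 itself read 4.99 to 5.22 on the 4 arrays of lowest trimmed mean and 3.45 to 4.05 on the other 9. The part of array scale in these correlations was not tested. No gene stood in the lists of 2 members.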

How the data were processed

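Total RNA from CD31-sorted tumor cells was hybridized as biotinylated cRNA to 1-color arrays. The authors deposited 1 log2 value per probe set and array. Per the labels these came from MAS5, whereas the study's methods name bead chips and BRB-ArrayTools, and the log base is not given in the sources used here and was taken as 2. The values carry no detection calls, and the number of arrays limits the precision. Trimmed linear means of the deposited arrays ran between 19.4 and 33.5. Arrays were therefore quantile normalized, with all values under their 30th percentile raised to it.

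Of 45101 probe sets, 34945 named 1 gene symbol, 932 several and 9211 none, and 64 were array controls. Those with 1 symbol and above the floor on at least 4 of 13 arrays (27388) entered limma (version 3.58.1, R 4.3.3; lmFit and eBayes with an intensity trend) with all 3 groups, 10 residual degrees of freedom and Benjamini-Hochberg adjustment over all 27388. Gene lists used the probe set with the highest mean for each gene (15370 genes). Exact two-sided permutation tests used arrays as units. On simulated data for the 27388 probe sets, limma recovered 8.96% of log2 changes of 1, 52.2% of 2 and 87.9% of 4 for sensitive against control (for resistant against sensitive, 7.46%, 46.3% and 90.9%). The simulated noise was normal and independent, with the same spread in all groups. Real sensitive arrays correlated among themselves at r = 0.76 to 0.94, beside 0.93 to 0.97 for resistant arrays, so these rates need not hold for the real data.

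Every probe set of the 6 genes is named, with the 5 genes of highest Pearson correlation to each, the adaptors Tyrobp and Hcst, Syk and up to 3 genes of a list by smallest p. Genes named beyond that rule (Adam17, Pecam1 and Ppbp) were chosen after their values were seen. The members and all 16 gene lists were chosen with earlier results of these data known. Alternatives covered scaling, floor, filter, array weights, a Student's t-test with pooled variance, a replicate block and left-out arrays. The study's methods name a t-test with a random variance model, which was not used here.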

Additional observations from a re-analysis of the deposited data

Results flagged for a closer look

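Of 33 sets of 4 or 5 arrays (11 probe sets in 3 groups), 6 held an array that lay far from the others of its group, where chance marks about 5% of such sets. Trem1 probe set 1460282_at read 5.61 on sensitive array 4, against 2.30 to 2.40 on the other sensitive arrays. On control array 3, Treml1 (1452630_at) read 5.17 against 3.49 to 3.91 on the other control arrays. Control array 3 also stood apart for Treml2 probe set 1440938_at, at 4.74 against 3.94 to 4.15, and for Trem2 probe set 1421226_at, at 3.93 against 3.16 to 3.32. This array had the lowest trimmed mean of the control arrays, 23.8 beside 31.1 to 33.1, and the part of that in these values was not tested. On sensitive array 3, Treml2 probe set 1440298_at read 3.94 against 2.09 to 2.30, and probe set 1419837_at read 2.08 where the other sensitive arrays were at the floor of 2.01. The flag of 1419837_at follows from the floor and is no sign of an unusual array. Its deposited value on sensitive array 3 was 1.99, beside 2.05, 1.98 and 1.55 on sensitive arrays 1, 2 and 4. Treml4 and Trem3 had no such array in any group.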

How the results depend on the processing

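Of 441 values from settings other than leaving out 1 array, 402 kept their direction and side of the threshold or, where untested, moved by less than 1 SD. Since 0 member probe sets passed by the reported settings, keeping the side of the threshold says little. For tested values the count mainly follows the sign. Treml4 lay below control in all 27 alternatives, between -3.08 and -1.98 for resistant and between -3.71 and -1.42 for sensitive cells. Nothing is read from this, since that pattern chose the gene and every treated array lay below every control array. Probe sets passing adjustment, 0 by the reported settings, numbered 31 for resistant against control cells with array weights, 17 for resistant against sensitive and 19 for sensitive against control cells without sensitive arrays 1, 2 and 3, and 1 for sensitive against control cells without the 5 arrays of lowest trimmed mean, a setting chosen after seeing the data. Leaving out 1 array at a time gave 0 to 594 for resistant against sensitive, 0 to 980 for sensitive against control (both highest without sensitive array 4) and 0 to 0 for resistant against control cells.

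Signs turned as follows, and the cause was not tested. With sensitive array 4 as the only sensitive array, resistant minus sensitive became -1.05 and -0.75 (Trem1), -0.24 (Trem3), -1.0 (Treml4), 0.072 (Treml1), 0.15 and 0.75 (Treml2 1440298_at and 1440938_at), and sensitive minus control became 1.0 (Trem1 1447284_at), 0.091 (Trem2 1421792_s_at), -0.12, -0.44 and -0.10 (Treml2 1440298_at, 1440938_at and 1444718_at). As deposited, resistant minus sensitive was -0.063 for Treml4. Resistant minus control was -0.0017 for Treml2 1440298_at with no floor and 0.15 for Trem1 1447284_at with array weights. Without control arrays 4 and 5, Trem2 1421226_at was -0.12 (sensitive minus control) and Treml1 -0.064 (resistant minus control). Without the 5 arrays of lowest trimmed mean, Trem2 1421226_at was 0.069 (resistant minus sensitive) and 0.088 (resistant minus control), Treml4 -0.52 (resistant minus sensitive), Treml1 -0.019 and -0.045 (sensitive and resistant minus control), Treml2 1444718_at -0.015 (sensitive minus control) and Trem1 1447284_at 0.32 (resistant minus control). With those 5 arrays alone, also chosen after seeing the data, sensitive minus control was -0.42 (Trem2 1421226_at), -0.064 (Treml1) and -0.080 (Treml2 1440298_at), and resistant minus control -0.0044 (Trem2 1421792_s_at), -0.65 (Treml1) and -0.14 (Treml2 1440298_at).

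Leave-one-out ranges that crossed 0 were -0.23 to 0.41 (Treml4) and -0.38 to 0.27 (Treml2 1440298_at) for resistant minus sensitive; -0.092 to 0.15 (Trem2 1421226_at) and -0.24 to 0.38 (Treml2 1440298_at) for sensitive minus control; and, for resistant minus control, -0.32 to 0.26 (Trem1 1447284_at), -0.016 to 0.64 (Trem2 1421792_s_at), -0.22 to 0.35 (Treml1), -0.18 to 0.17 and -0.013 to 0.54 (Treml2 1440298_at and 1440938_at).

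Replicate numbers did not pair the arrays: deviations of same-numbered arrays correlated between -0.44 and 0.50. With the replicate number as a block, 0 probe sets passed in each comparison, Treml4 was -2.43 and -2.49 (resistant and sensitive minus control), and Trem2 1421226_at turned to -0.035 in sensitive against control cells.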

Other observations

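Lists of other cells that the CD31 gate could hold were read beside the receptors, at an unadjusted p under 0.05 with 0 genes passing after adjustment in limma. Over all genes, 4.51% were higher in resistant than sensitive cells, 6.58% lower and 5.28% higher in sensitive than control cells, and 0.956% higher in resistant than control cells. Of 15 genes of large peritoneal macrophages, 9 were higher in resistant than sensitive cells and 7 lower in sensitive than control cells, and 3 were higher in resistant than control cells (Alox15 at 2.24, Prg4 at 1.97 and F5 at 2.18). Of 25 endothelial genes, 3 were lower in sensitive than control cells (Ecscr at -1.56, Cdh5 at -2.42 and Emcn at -1.47) and 0 differed between resistant and control cells. Control arrays 4 and 5 carried this, with Cdh5 at 7.96 and 8.06 there and at 3.03, 2.61 and 2.88 on control arrays 1 to 3, against 2.11 to 3.27 on sensitive arrays. Of 10 mesothelial genes, 3 were higher in sensitive than control cells, with Gpm6a at 2.10 and Bnc1 at 2.16, and Gpm6a stood at 2.08 in resistant against control cells. Sensitive arrays 1 and 2 carried the sensitive values, with Bnc1 at 6.27 and 6.86 there and at 2.01 and 2.17 on sensitive arrays 3 and 4. Of 9 T cell genes, 0 differed in any comparison by this measure, though all 9 had means above control in sensitive cells. The median of the T cell list was 4.62 on sensitive array 3, beside 2.31 to 3.75 on the other 12 arrays.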
